A study of Rattus norvegicus with 16 samples.

Results

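MiR-210 was followed in the kidney and blood plasma of rats that had received contrast medium or saline. It is 1 of the 350 rat miRNAs read by the array, and was taken by its name in the array design, rno-miR-210, with both of its probes and its row in the authors' deposited table of log2 values. The treated group, contrast-induced acute kidney injury (CI-AKI), and the control group held 12 male Sprague-Dawley rats each, weighing 250 to 300 g; their age is not given in the sources used here. Every rat, controls included, had gone without water for 3 days and had then received the diuretic furosemide at 10 mg/kg into muscle. CI-AKI rats next received Omnipaque, a nonionic contrast medium with 350 mg iodine per ml, at 10 ml/kg into the tail vein over 5 min, and control rats received the same volume of normal saline. Blood and kidneys were taken 8 h later. Each pool mixed the RNA of 3 rats, with 4 pools per treatment and tissue, so 16 arrays covered kidney CI-AKI, kidney control, plasma CI-AKI and plasma control. The controls are therefore dehydrated, furosemide-treated rats, and pools differ as mixtures of 3 animals do.

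MiR-210 is the miRNA most regularly raised when cells lack oxygen. In human and mouse cells the hypoxia-inducible factors (HIF) bind near its gene and raise its transcription, and the mature miRNA lowers the iron-sulphur cluster scaffold ISCU and other proteins of mitochondrial respiration, as well as the ephrin EFNA3 in endothelial cells. The outer medulla of the kidney works at low oxygen tension, and contrast media are known to lower medullary oxygenation in rats. The comparisons asked how much miR-210 the kidney and plasma of treated rats held relative to controls at this single time.

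The sequences are given first because they show what the array name stands for and why few other miRNAs resemble it. They are from RefSeq on the GRCr8 assembly. The hairpin lies at chr1:205755923-205756032 on the minus strand, and the capitals in it mark the mature 3p arm, bases 66 to 87. The older name rno-miR-210, without an arm, belongs to this 3p arm; the array files give neither the arm nor the probe sequence. In the mature 3p sequence the capitals mark the seed, bases 2 to 8, which pairs with target mRNAs.
Mir210 hairpin: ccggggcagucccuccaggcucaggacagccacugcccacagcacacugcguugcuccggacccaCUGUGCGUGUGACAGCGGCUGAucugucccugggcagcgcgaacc
rno-miR-210-3p: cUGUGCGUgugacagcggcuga
rno-miR-210-5p: agccacugcccacagcacacug
The 3p arm lies at chr1:205755946-205755967 and the 5p arm at chr1:205755984-205756005. The table also places the lncRNA LOC102553043 and the miRNA gene Mir3574 over the hairpin. Phrf1 and Irf7 are the next genes on one side, and Lmntd2 and Rassf7 on the other. G and C make up 63.6% of the mature 3p sequence, against a median of 47.8% over the 693 mature names in the table.

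Of these 693 names, 1 carries the bases 2 to 8 of miR-210-3p, which is miR-210-3p itself. Bases 2 to 7 are shared by 2 names, miR-210-3p and miR-147. MiR-147 is shown because it is the closest relative by seed, with the shared bases 2 to 7 in capitals.
rno-miR-147: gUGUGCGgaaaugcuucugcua
Counted from 1 at the 5′ end, the first 8 bases of miR-210-3p and miR-147 differ by C1G and U8G. MiR-147 lies at chr3:130176322-130176343 on the plus strand. It was on the array and was detected on 0 of 4 arrays in each of the 4 groups.

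A few facts of the arrays bear on every value. Plasma arrays lay on slide 1 and kidney arrays on slide 2, so tissue and slide cannot be told apart. On both slides the control pools sat in odd columns and the CI-AKI pools in even ones, so column and treatment cannot be told apart. Plasma pool 4 of both groups was dim. The total miRNA signal of these arrays was 7436 in CI-AKI and 3859 in control, and the RNA spiked in before labelling read 164.1 and 54.8, against 928 to 3155 on the other plasma arrays. The samples also carry letter codes whose meaning is not stated; 6 of the 8 letters go with opposite treatments in plasma and kidney, and 2 with the same. Groups follow the sample titles.

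The labelled tissues were checked on 9 miRNAs of kidney tubule and epithelium, such as miR-192 and miR-204. All 9 were detected on every kidney array, and their summed signal, scaled over the 16 arrays, was 4477 to 4696 in kidney CI-AKI and 4188 to 4595 in kidney control. In plasma 4 of the 9 were detected on all 4 arrays of each group. The liver miRNA miR-122 was detected on 0 kidney arrays in either group. None of the 22 marker miRNAs tested in kidney passed the threshold between CI-AKI and control, beside 3 of all 176 tested there (1.7%).

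In kidney, miR-210 was measured on every array, and its levels after contrast medium and after saline overlapped. The scaled signal, which puts the arrays of a tissue on a common level, was 21.3, 25.5, 28.7 and 23.3 in CI-AKI pools 1 to 4, against 19.0, 22.8, 25.6 and 18.6 in control pools 1 to 4. CI-AKI pools 2 and 3 and control pools 2 and 3 were the higher ones of their groups, and the groups overlapped. The means were 24.7 ± 3.14 in CI-AKI and 21.5 ± 3.35 in control (SD, n = 4 each). The difference of the log2 signals was 0.20 (SE 0.13, 95% interval -0.084 to 0.49), which is 1.15-fold, and it did not pass limma's test (adjusted p = 0.917). An exact permutation test of the same values, two-sided, gave p = 0.20, where 0.0286 is the smallest this design allows.

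Over all 176 miRNAs tested in kidney, 3 passed at an adjusted p under 0.05 (1.7%), and miR-210 ranked 19th by its difference and 26th by its p. The median difference of the 176 was 0.028 on the log2 scale. Within groups miR-210 varied more than most: its SD was 0.203 on the log2 scale, against a median of 0.132.

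**Figure D1:**
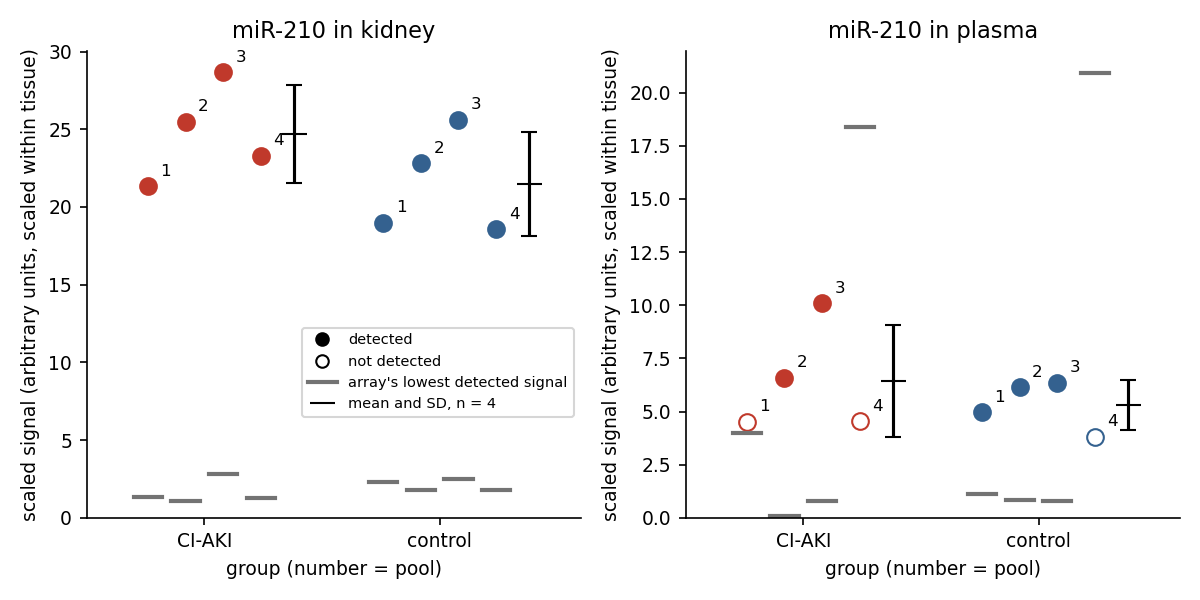
Scaled miR-210 signal (arbitrary units, scaled within each tissue) of each array, CI-AKI left and control right, kidney in the left panel and plasma in the right. Numbers are pools, open points arrays that did not detect miR-210, grey bars each array's lowest detected signal, and black bars the mean and SD of 4 arrays; kidney groups span 21.3 to 28.7 in CI-AKI and 18.6 to 25.6 in control, and plasma pool 4 lies under its detection level in both groups.

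Both probes averaged higher in CI-AKI than in control kidney, with overlapping groups. The brighter probe, A_26_P00001472, had a scaled signal of 34.4 ± 4.01 in CI-AKI and 30.5 ± 4.54 in control (exact permutation test, two-sided, p = 0.229, n = 4 each). The dimmer one, A_26_P00001473, had 14.97 ± 2.34 in CI-AKI and 12.5 ± 2.43 in control (exact p = 0.229). On the log2 scale these were 0.18 and 0.27. Each probe had 10 spots per array. Of the 20 spots, all 20 stood well above background on each of the 4 kidney CI-AKI arrays, and 13, 20, 18 and 19 did on control pools 1 to 4. No spot was saturated.

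The order of the CI-AKI pools changed with scaling. Before scaling, miR-210 read 25.7, 29.5, 17.2 and 26.3 in CI-AKI pools 1 to 4, against 17.0, 27.6, 27.0 and 17.3 in control pools 1 to 4. CI-AKI pool 3, the highest after scaling, was the lowest of its group before it. That array was the dimmest kidney array, with a total signal of 59975 against 89325 to 125011 on the others, and its signals were multiplied by 1.67. Without it, and with the other arrays scaled again, the difference was 0.11 on the log2 scale. Before scaling the groups differed by 2.46 units (exact permutation test, two-sided, p = 0.629).

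In the authors' deposited table, which holds log2 values with nearly equal distributions on all arrays, the kidney difference was close to 0. MiR-210 stood there at 4.09, 4.41, 4.60 and 4.30 in CI-AKI pools 1 to 4, against 4.16, 4.41, 4.48 and 4.33 in control pools 1 to 4. The means were 4.35 ± 0.21 in CI-AKI and 4.35 ± 0.14 in control (SD, n = 4 each), which differed by 0.0040 (two-sided exact permutation p = 0.971). Under 28 other settings the difference in kidney was above 0 in all 28 and passed the adjusted threshold in 0. Settings that only changed the detection filter, or added slide row or pool number as a block, could not move it. It was between 0.0040, in the authors' values, and 0.27, with the dimmer probe alone or without CI-AKI pool 1. Quantile normalization gave 0.017 and normexp background correction 0.055. Within the upper slide row, which held pools 1 and 2 of each group, it was 0.16. Within the lower row, with pools 3 and 4, it was 0.25. By construction these values average to the reported difference.

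**Figure D2:**
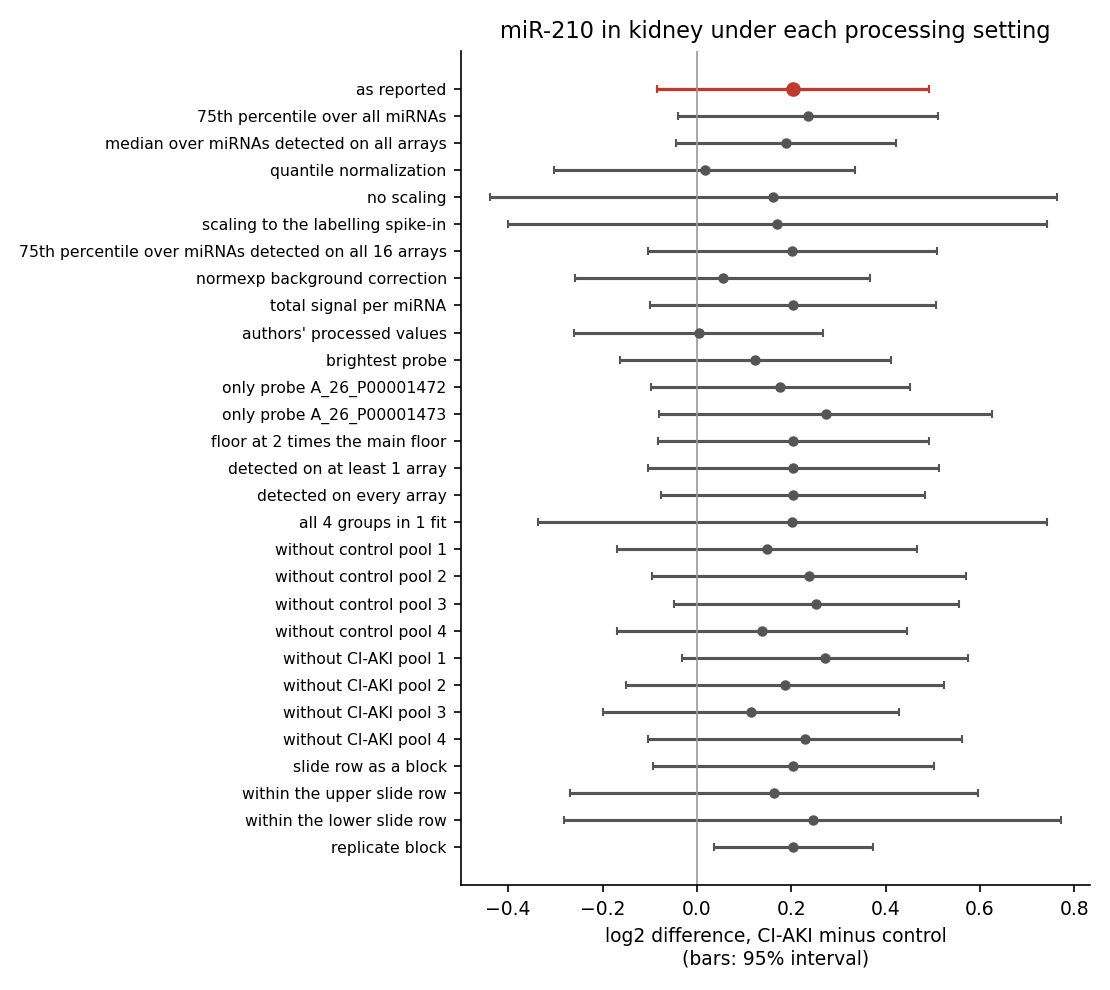
Log2 difference of miR-210 in kidney, CI-AKI minus control, under each setting, with 95% intervals; the red point is the reported value. All points lie above 0, and the intervals include 0 under every setting except the replicate block, where the unadjusted p was 0.0249 and the adjusted p 0.438.

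In plasma miR-210 was near the limit of detection. It was detected on 2 of 4 CI-AKI arrays, pools 2 and 3, and on 3 of 4 control arrays, pools 1 to 3. The scaled signal was 4.52, 6.59, 10.1 and 4.55 in CI-AKI pools 1 to 4, against 4.96, 6.14, 6.35 and 3.83 in control pools 1 to 4. CI-AKI pool 3 was the highest plasma array and control pool 4 the lowest, and the groups overlapped. The means were 6.44 ± 2.63 in CI-AKI and 5.32 ± 1.17 in control (SD, n = 4 each).

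The plasma difference was 0.22 on the log2 scale (exact permutation test, two-sided, p = 0.571). The plasma tests here are unpaired, although same-numbered plasma pools deviated together. A fit with the pool pairs as a block is given at the end. MiR-210 was not among the 96 plasma miRNAs detected on all arrays of a group, of which 0 passed limma's test (0%) and 5 had an unadjusted p under 0.05. When the 233 miRNAs detected on at least 1 plasma array were tested, miR-210 had an SE of 0.35, a 95% interval of -0.57 to 1.01 and an adjusted p of 0.999. The interval holds a fall as well as a rise.

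Both arrays of pool 4 failed to detect miR-210. Before scaling, plasma read 3.71, 20.8, 17.8 and 0.822 in CI-AKI pools 1 to 4, against 8.78, 13.9, 19.6 and 0.375 in control pools 1 to 4. The values of pool 4 were multiplied by 5.54 in CI-AKI and 10.2 in control, and stayed under the lowest detected signals of these arrays, 18.4 and 20.9. Of the 20 spots, 0, 20, 14 and 0 were well above background in CI-AKI pools 1 to 4, and 6, 18, 17 and 0 in control pools 1 to 4. Without pool 4 of both groups, and with the scaling of the other arrays kept, the plasma difference was 0.21 (SE 0.37, adjusted p = 0.875 over 182 miRNAs), close to the 0.22 of all pools. When the other 6 arrays were scaled again over the larger set of miRNAs they all detected, it was 0.47 (SE 0.34, adjusted p = 0.523 over 182 miRNAs). Without pool 4 and with no scaling it was -0.27 (adjusted p = 0.995 over 230 miRNAs).

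In plasma neither probe differed beyond the spread between pools. Probe A_26_P00001472 had a scaled signal of 7.52 ± 3.93 in CI-AKI and 8.34 ± 1.59 in control (exact permutation test, two-sided, p = 0.686, n = 4 each), and probe A_26_P00001473 had 5.37 ± 1.44 in CI-AKI and 2.30 ± 3.68 in control (exact p = 0.143). Taken alone they gave log2 differences of -0.27 and 0.91, and these values rest on pool 4, where miR-210 was not detected. In control pool 4 the brighter probe read 1.05 before scaling, which became 10.68, the highest control value, and the dimmer probe read -0.297 and was set to the floor. Over pools 1 to 3, with the scaling kept, the brighter probe differed by 0.098 and the dimmer one by 0.42 on the log2 scale, and the groups overlapped for both (n = 3 each).

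**Figure D3:**
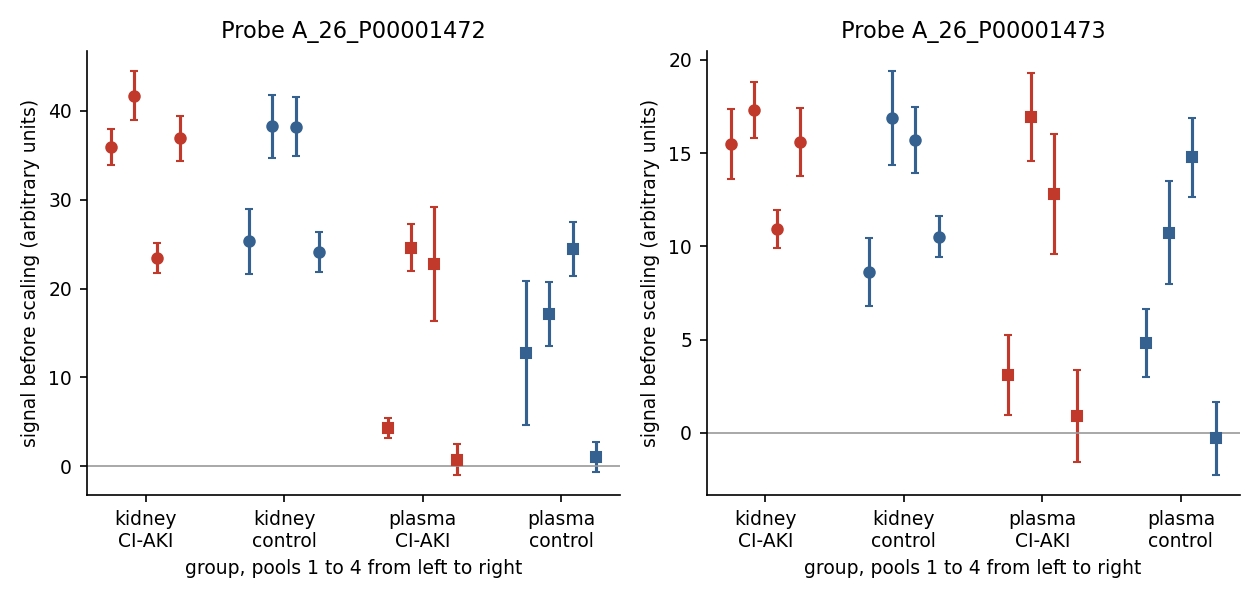
Signal before scaling (arbitrary units) of the probes of miR-210, one per panel, with circles for kidney and squares for plasma, red for CI-AKI and blue for control, and pools 1 to 4 from left to right. Points are means and bars the SD over at most 10 spots of an array; both probes lie near 0 in plasma pool 4 of both groups.

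Erythroid miRNAs, a sign of red cell content in plasma, were set beside these values. The list held 4, of which miR-451, miR-144 and miR-16 were on the array. Their summed signal, scaled over all 16 arrays, was 5275 to 17190 in plasma CI-AKI and 7882 to 11565 in plasma control, and in kidney 830 to 877 in CI-AKI and 792 to 898 in control. None of the 3 passed the test in either tissue, beside 1.7% of all tested miRNAs in kidney and 0% in plasma. Their part in the miR-210 values was not tested.

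The test found no difference between the kidney and plasma effects. The kidney difference minus the plasma difference was -0.064 on the log2 scale. Among the 87 miRNAs that could be tested in both tissues, 1 passed (1.15%), and miR-210 was not one of the 87. Tested among the 262 detected on at least 1 array, it had an SE of 0.36, a 95% interval of -0.84 to 0.71 and an adjusted p of 1.

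Which tissue held more miR-210 depended on how the arrays were put on a common level. Scaled over the miRNAs that all 16 arrays detected, miR-210 averaged 11.9 ± 1.93 in kidney CI-AKI and 13.6 ± 5.45 in plasma CI-AKI, and 10.3 ± 1.46 in kidney control and 10.9 ± 2.27 in plasma control (SD, n = 4 each). From highest to lowest the groups were plasma CI-AKI, kidney CI-AKI, plasma control and kidney control, and each neighbour differed by less than its spread. The plasma means include arrays that did not detect miR-210, CI-AKI pools 1 and 4 and control pool 4. On this scale plasma pool 4 read 9.44 in CI-AKI and 7.90 in control, under the lowest detected signals of these arrays, 38.1 and 43.2. In controls, kidney minus plasma was -0.054 on the log2 scale (SE 0.25, 95% interval -0.59 to 0.49, adjusted p = 0.864). In CI-AKI it was -0.12 (SE 0.25, 95% interval -0.66 to 0.42, adjusted p = 0.679). Exact permutation tests gave p = 0.771 in control and 0.743 in CI-AKI (n = 4 each).

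Most miRNAs did differ between the tissues. In CI-AKI 135 of 181 passed (74.6%), 53 higher in kidney (29.3%) and 82 lower (45.3%), with a median difference of -0.59. In controls 138 of 178 passed (77.5%), 58 higher in kidney (32.6%) and 80 lower (44.9%), with a median of -0.40. MiR-210 thus lay 0.47 above the median of the tested miRNAs in CI-AKI and 0.34 above it in control.

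The authors' deposited values gave another order. There, all 4 kidney arrays of each treatment, at 4.09 to 4.60 in CI-AKI and 4.16 to 4.48 in control, lay above all 4 plasma arrays, at 1.91 to 3.96 in CI-AKI and 2.54 to 3.53 in control. The means were 4.35 ± 0.21 in kidney CI-AKI and 3.05 ± 0.87 in plasma CI-AKI, and 4.35 ± 0.14 in kidney control and 2.97 ± 0.46 in plasma control (SD, n = 4 each). The differences were 1.31 in CI-AKI (adjusted p = 0.00335) and 1.37 in control (adjusted p = 0.00231), both at the smallest exact permutation p of 0.0286. Without pool 4 of plasma they were 1.26 (adjusted p = 0.00624) and 1.27 (adjusted p = 0.00625). In that table the median tested miRNA was also higher in kidney, by 0.53 in CI-AKI and 0.55 in control.

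Quantile normalization of the processed signals gave 1.51 in CI-AKI (adjusted p = 0.0199) and 1.56 in control (adjusted p = 0.0154). Normexp background correction gave the opposite sign, -2.35 in CI-AKI (adjusted p = 0.0181) and -1.38 in control (adjusted p = 0.161). Of 37 other settings, kidney was higher in 11 and lower in 26 for CI-AKI, with 5 past the threshold, and higher in 14 and lower in 23 for control, with 3 past it. These arrays settle no direction between kidney and plasma.

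**Figure D4:**
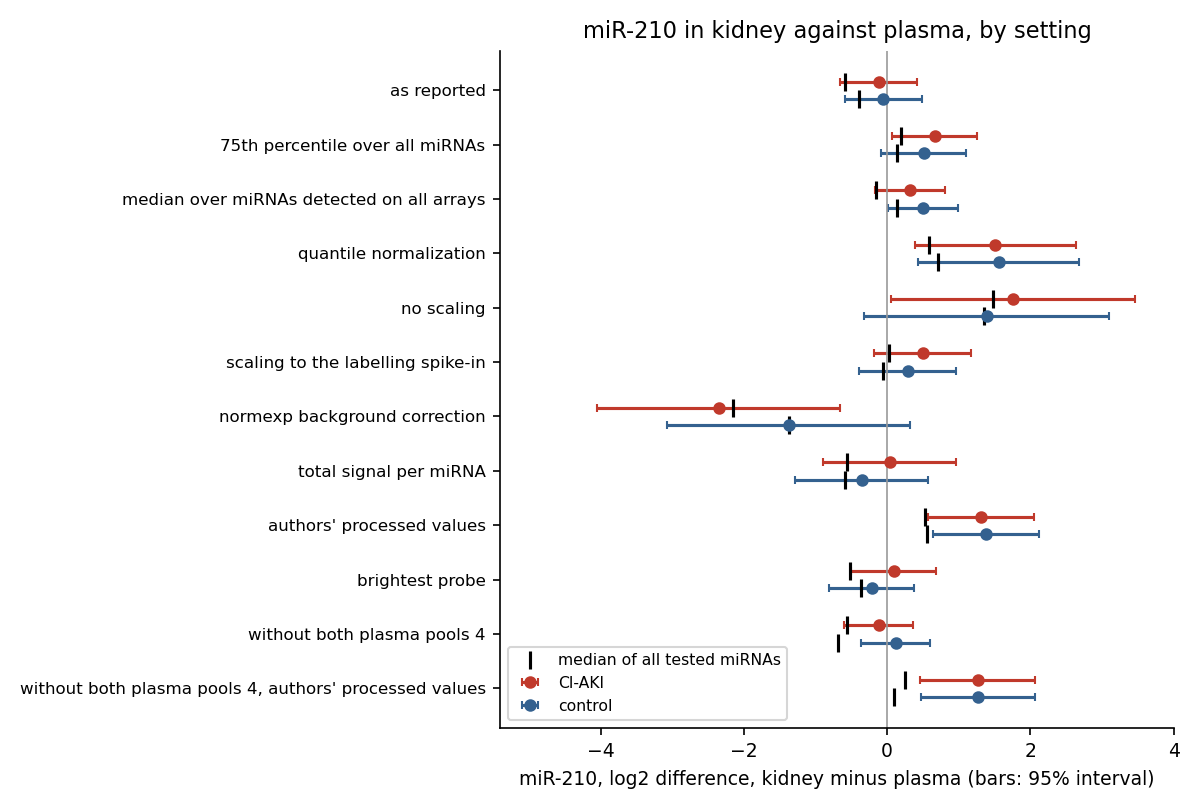
Log2 difference of miR-210, kidney minus plasma, under each way of scaling or reading the arrays, in CI-AKI (red) and control (blue), with 95% intervals. Black ticks mark the median difference of all tested miRNAs, which moves with the setting; miR-210 lies at -0.12 and -0.054 as reported and at 1.31 and 1.37 in the authors' values.

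Other miRNAs tied to oxygen supply were set beside miR-210. The list held 22 names, miR-210 included: 15 reported to rise in hypoxic cells, mostly human tumour lines, and 7 reported to act on HIF or its regulators, a split made after the values were seen. MiR-155 was not on the array. In kidney 20 could be tested, and 0 passed, beside the 1.7% of all tested miRNAs. The difference was above 0 for 16 and below 0 for 4, with a median of 0.045 on the log2 scale, against 60.2% above 0 and a median of 0.028 over all 176 tested.

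This count changed with the setting. It was 19 above 0 and 1 below with the 75th percentile over all miRNAs, where the median of all tested miRNAs was also highest, at 0.059. It was 10 above and 10 below without scaling and with the brightest probe of each miRNA. The median of the list was above that of all tested miRNAs in 10 of 10 settings, by 0.014 to 0.030. Settings that only changed the scaling factors of the arrays shift all miRNAs nearly alike and could hardly move this offset. The 10 settings are therefore not separate checks. The uncertainty of this offset was not estimated. For a single list member the median SE was 0.072. The list was split by role in the reported setting only, and near-identical members such as miR-27a and miR-27b were counted separately. Of the 14 tested miRNAs reported to rise in hypoxia, 12 lay above 0, beside 60.2% of all 176 tested, with differences of -0.025 to 0.25. Of the 6 tested miRNAs that act on HIF, such as miR-17-5p and miR-18a, reported to lower HIF-1α in human cells, 4 lay above 0, with differences of -0.054 to 0.080. MiR-21, a miRNA known to rise in injured kidney, differed by -0.0014 (adjusted p = 0.996).

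The CI-AKI and control pools did not overlap for 3 list members in kidney, beside 9 of the 176 tested (5.11%), and these 3 also had an unadjusted p under 0.05, beside 11 of the 176 (6.25%). They were miR-27a, miR-24 and miR-27b. Their sequences are given because all 3 come from a pair of gene clusters, each with a miR-23, a miR-27 and a miR-24. One cluster spans chr19:40859481-40859798 and the other chr17:1818672-1819425, both on the minus strand. Capitals mark the seed.
rno-miR-27a-3p: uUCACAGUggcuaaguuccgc
rno-miR-27b-3p: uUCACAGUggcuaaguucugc
rno-miR-24-3p: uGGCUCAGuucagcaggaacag
rno-miR-23a-3p: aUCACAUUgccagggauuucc
rno-miR-23b-3p: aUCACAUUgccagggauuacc
MiR-27a and miR-27b share their seed and differ by the 1 base C19U, so their signals may not be separate measurements. The same holds for miR-23a and miR-23b, which differ by U19A. MiR-24 has the same mature sequence in both clusters, so its signal cannot be given to one of them. None of these seeds is that of miR-210.

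MiR-27a, reported to rise in hypoxic tumour cells and a repressor of fat cell formation, had scaled signals of 675, 751, 765 and 683 in CI-AKI pools 1 to 4, against 604, 646, 601 and 566 in control pools 1 to 4. Every CI-AKI pool was above every control pool. The difference was 0.25 on the log2 scale (SE 0.071, adjusted p = 0.194).

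MiR-24, known to restrain cell division, had 1323, 1200, 1238 and 1174 in CI-AKI pools 1 to 4, against 1013, 1132, 1117 and 1064 in control pools 1 to 4. The lowest CI-AKI pool, pool 4, stood just above the highest control pool, pool 2. The difference was 0.19 (SE 0.067, adjusted p = 0.415).

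MiR-27b had 857, 818, 883 and 851 in CI-AKI pools 1 to 4, against 786, 787, 775 and 719 in control pools 1 to 4, a difference of 0.15 (SE 0.060, adjusted p = 0.60). With quantile normalization, without scaling and with the spike-in, all 3 had overlapping groups. Groups also overlapped for miR-24 with median scaling, for miR-24 and miR-27b with the brightest probe, and for miR-27a and miR-27b in the authors' values. All 3 stayed apart with the percentile over all miRNAs, with normexp and with total signals. MiR-23a, from the cluster of miR-27a, differed by 0.082 and miR-23b by 0.055, and both had overlapping groups.

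**Figure D5:**
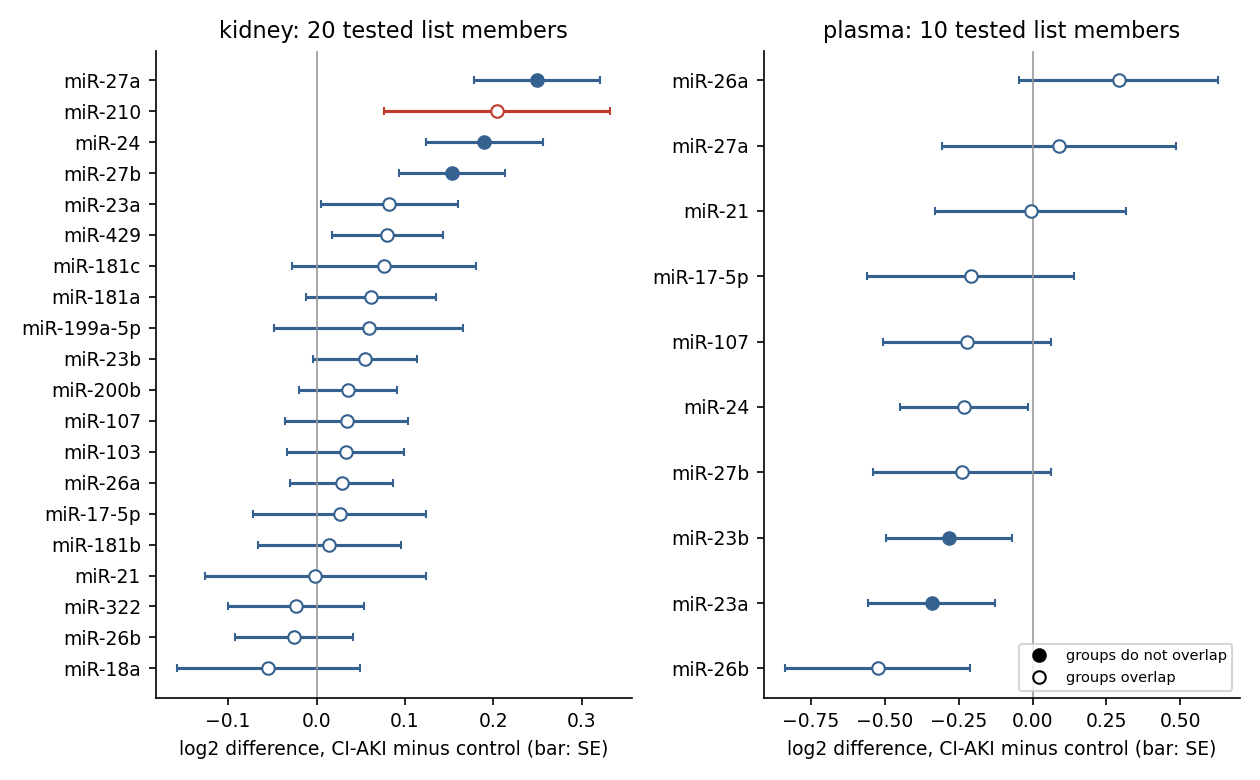
Log2 differences, CI-AKI minus control, with SE, of the tested members of the list of oxygen-linked miRNAs, 20 in kidney (left) and 10 in plasma (right). MiR-210 is red in kidney and was not tested in plasma; filled points are members whose groups do not overlap, 3 in kidney and 2 in plasma, and no member passed the threshold.

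In plasma 10 list members could be tested, and 0 passed, as did 0% of the 96 miRNAs. The difference was above 0 for 2 and below 0 for 8, with a median of -0.23, against 40.6% above 0 and a median of -0.086 over all 96. The plasma list median was also below that of all tested miRNAs in every other setting tried for the list. In the authors' values it was -0.075 against -0.0013. As in kidney, changes of scaling factor could hardly move this offset, and its uncertainty was not estimated. MiR-23a had 1425, 1594, 1606 and 1707 in CI-AKI pools 1 to 4, against 2046, 2029, 1813 and 2135 in control pools 1 to 4. All CI-AKI pools were below all control pools, and the difference was -0.34 (SE 0.21, adjusted p = 0.941). MiR-23b likewise did not overlap, at -0.28 (SE 0.21, adjusted p = 0.941), so 2 members were apart, beside 5.21% of all tested. Without pool 4 of both groups and with the scaling kept, miR-23a was at -0.35 and miR-23b at -0.30, and neither overlapped. When the other 6 arrays were scaled again, miR-23a was at -0.094 and miR-23b at -0.043, both with overlapping groups, and the median of all tested miRNAs was 0.15. With all pools, both overlapped under the median, quantile and spike-in scalings, without scaling, with normexp and in the authors' values.

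The miRNAs whose kidney pattern was most like that of miR-210 were ranked by Pearson's r of the log2 signals over the 8 kidney arrays, among 162 miRNAs detected on all 8. These arrays share their scaling factors, and the values of r are given as a description. The median r was 0.148 and the range -0.53 to 0.854. MiR-429, an epithelial miRNA of the miR-200 family, came first with r = 0.854 (Spearman's rho 0.857). MiR-542-5p followed with r = 0.850 (rho 0.810), then miR-331 with 0.783 (rho 0.714), miR-193 with 0.752 (rho 0.786) and miR-27a with 0.746 (rho 0.619).

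MiR-429 had scaled signals of 449, 458, 498 and 456 in CI-AKI pools 1 to 4, against 443, 454, 450 and 414 in control pools 1 to 4. Its highest array was CI-AKI pool 3 and its lowest control pool 4, as for miR-210, and the groups overlapped. Without these arrays, which lie farthest from the median of miR-210, r was 0.751 for miR-429 and 0.757 for miR-542-5p, but 0.229 for miR-331, 0.474 for miR-193 and 0.397 for miR-27a over the other 6 arrays. The likeness of the last 3 rested on those arrays. In plasma no such ranking is given, since 5 arrays detected miR-210.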

How the data were processed

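MiRNAs were read on 16 one-colour Agilent rat miRNA arrays. Per the file headers, Agilent Feature Extraction 10.7.3.1 read the spot intensity; the deposited scanner tables hold, per spot, a processed signal corrected for background with its flags and, per miRNA, a total signal and a detection call. The labels name biotin as the label. The authors also deposited log2 values for 372 rows. Set against the total signal of the same array they had correlations of 0.916 to 0.999; each column's median was 2.28 and quantiles differed by at most 0.048, so they appear quantile-normalized over all arrays; their exact making is not given in the sources used here.

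Outlier and control spots were dropped, and processed signals averaged per probe and then per miRNA. Arrays were scaled to a common 75th percentile, taken over the miRNAs that every compared array detected (163 in kidney, 74 in plasma, 65 over all 16). Where an array was left out, the rest were scaled again unless stated. Values under a floor, the median of the arrays' lowest detected signals (1.79 in kidney, 0.976 in plasma, 1.31 over all 16), were set to it before log2 was taken, which understates changes of dim miRNAs. Levels are not compared between miRNAs.

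Tests took the miRNAs that all 4 arrays of either compared group detected, for the interaction in both tissues, with limma 3.58.1 (lmFit and eBayes, R 4.3.3), two-sided, Benjamini-Hochberg over all tested miRNAs, threshold 0.05. MiR-210 missed this rule in plasma and for the interaction, so its adjusted p there comes from the planned wider filter of detection on at least 1 array. Intervals are limma's 95% intervals. Single values were compared by exact permutation tests over 70 labelings. The files give no mean signal, so normexp (offset 50) used the median signal and background, with no floor. Its offset was above the miR-210 signal before scaling on every array, so all normexp values of miR-210 rest largely on it. The fits were tested on simulated data. Tables and figures used Python 3.11.15, pandas 2.3.3 and matplotlib 3.10.9. The number of pools limits the precision.

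Named are miR-210, members of the oxygen-linked list, the 5 miRNAs most like miR-210 and any sharing its seed; miR-147, which shares bases 2 to 7, was added afterwards. MiR-210 and the lists were chosen with earlier results of these data known. Same-numbered plasma pools deviated together (correlations of 0.224, 0.488, 0.619 and 0.603 over 96 miRNAs). Their numbers were therefore taken as pairs in an alternative fit only, and the main plasma tests are unpaired. With the pairs as a block 0 plasma miRNAs passed. Which plasma and kidney pools share rats was not given.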

Additional observations from a re-analysis of the deposited data

How the results depend on the processing

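In kidney the CI-AKI difference of miR-210 kept its sign and stayed short of the threshold under all 28 alternatives (adjusted p 0.438 to 1); leaving out 1 pool gave 0.11 to 0.27. The detection filters, the slide row block and the replicate block could not change this difference, nor those of the other comparisons. With the replicate block it was thus 0.20 (SE 0.070, adjusted p = 0.438 in limma). Same-numbered kidney pools had correlations of 0.204, 0.588, -0.100 and 0.147, and 1 of 4 correlated best with its own number. The kidney numbers were therefore not taken as pairs. The block changed no other call, and with it the plasma difference was 0.22 (adjusted p = 0.892 over 233 miRNAs). In plasma 26 of 34 alternatives were above 0 and 8 below; normexp gave 0.99, the single probes -0.27 and 0.91, the arrays without pool 4 and without scaling -0.27, and leaving out 1 pool -0.022 to 0.40. The kidney minus the plasma difference was 0.36 without scaling, -0.98 with normexp, 0.39 with total signals, 0.31 with the brightest probe, 0.40 and -0.84 with the single probes, and -0.22 to 0.17 with 1 pool left out.

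Kidney minus plasma in CI-AKI was 0.67 (adjusted p = 0.0399) with the percentile over all miRNAs, 0.31 with the median, 1.51 with quantiles, 1.75 without scaling, 0.50 with the spike-in, -2.35 with normexp, 0.033 with total signals, 1.31 in the authors' values (1.26 without plasma pool 4), 0.091 with the brightest probe, 0.20 with probe A_26_P00001472 and -0.27 to 0.12 with 1 pool left out. In control it was 0.51, 0.50, 1.56, 1.39 and 0.29 with the first 5 of these, 1.37 in the authors' values (1.27 without plasma pool 4), 0.21 with probe A_26_P00001473, 0.091 in the lower slide row, 0.12 without plasma pool 4 under either filter, and -0.12 to 0.028 with 1 pool left out. The causes were not tested.

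Counts of miRNAs past the threshold ranged from 0 to 4 in kidney (3 as reported), 0 to 4 for the interaction (1), 55 to 205 between tissues in CI-AKI (135) and 54 to 190 in control (138), and were 0 in plasma throughout. No pool stood apart from the other 3 of its group by Dixon's 95% critical value in 20 sets of miR-210 values.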
